A study of Mus musculus with 6 samples.

Results

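Molecular chaperones were examined as a group of 94 genes of the 19977 in the deposited table. They were chosen by symbol: the heat shock factors, the Hsp70, Hsp110, Hsp90 and small heat shock proteins, the J-domain proteins (Dnaj symbols), the mitochondrial and cytosolic chaperonins, the Bag proteins, and the cochaperones Stip1, Ahsa1, Hspbp1 and Hspbap1. The rule is by symbol and uses no measured value, although the group was picked for description with earlier results of these data known. The libraries held CD4+ helper T cells of wild-type C57BL/6 mice, taken from spleen and lymph nodes, purified by flow cytometry and then stimulated in culture through CD3 (the T-cell receptor complex) and CD28 (a costimulatory receptor) by antibodies for 6 hours. The young group was 6 to 8 weeks old and the old group 11 months old, with 3 libraries each, all stimulated. The titles code the young age as 1 month, and the protocol's weeks are used here. No label states that libraries came from separate mice, so the p-values speak only of the spread among the 6 libraries, part of which may be technical. Of the 94 genes, 76 had a mean of at least 1 FPKM (fragment counts scaled by transcript length and library size) and were tested, while 18 did not and 5 of those had no counts. Hspa2, at a mean of 0.968 FPKM, lay just below that limit and Hspa1a, at 1.26 FPKM, just above it.

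Chaperones bind proteins that are not yet folded, or have lost their fold, and release them again in cycles driven by ATP. Hsp70 proteins take up nascent and misfolded chains from J-domain proteins, Hsp90 completes the folding of kinases and receptors, and the chaperonins are barrel-shaped complexes that enclose a single client. T cells that leave the resting state make protein at a much higher rate, and heat shock factors are the transcription factors that induce many chaperone genes under stress.

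Libraries held between 16932551 and 18708205 expected counts. Young replicate 1 stood apart: on log2 CPM (counts scaled to a common, TMM-adjusted library total) across genes, it correlated with the other young libraries at 0.914 and 0.927, against 0.982 between those. All 12 of 12 early activation genes (such as Il2ra and Egr1) were lowest in that library, and their summed level was 3175 CPM there, 5529 and 6480 CPM in young replicates 3 and 2, and 6961 to 9584 CPM in old libraries. All 4 of 4 B-cell genes were higher in young replicate 1 than in both other young libraries, with a summed level of 25.9 CPM there, 8.92 and 9.65 CPM in young replicates 2 and 3, and 7.67 to 14.3 CPM in old libraries. The CD8 T-cell genes, Cd8a and Cd8b1, summed to 19.8, 16.6 and 27.5 CPM in young and 14.6, 11.3 and 12.8 CPM in old libraries, with no overlap. Cd8b1 had a log2 difference of -0.84 ± 0.26 (adjusted p = 0.266). Neutrophil genes summed to 11.3 to 29.1 CPM in young and 1.40 to 11.5 CPM in old libraries, and myeloid genes to 8.76 to 14.7 CPM in young and 5.56 to 8.85 CPM in old libraries. The 4 CD4 T-cell markers found summed to 1322 to 1871 CPM. The part of activation and of other cells in the results on chaperones was not tested.

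The chaperone genes took 1.31% of the counts in young replicate 1, 2.57% in young replicate 2 and 2.70% in young replicate 3, against 2.04%, 2.22% and 2.25% in old replicates 1, 2 and 3. The old libraries thus lay close together, between 1 young library below them and the other 2 above them. In bulk RNA, fewer cells with high levels and less RNA per cell cannot be told apart. Of the 76 tested members, 54 (71.1%) were lower in young replicate 1 than in both other young libraries, against 41.2% of all 10509 tested genes. All 3 old libraries lay between young replicate 1 and the other 2 young libraries for 27 members (35.5%), against 13.0% of all tested genes. These 27 included all 8 tested subunits of the cytosolic chaperonin, both mitochondrial chaperonin genes, Hspa8, Hsp90aa1, Hsp90ab1, Hsph1, Stip1 and Ahsa1.

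**Figure D1:**
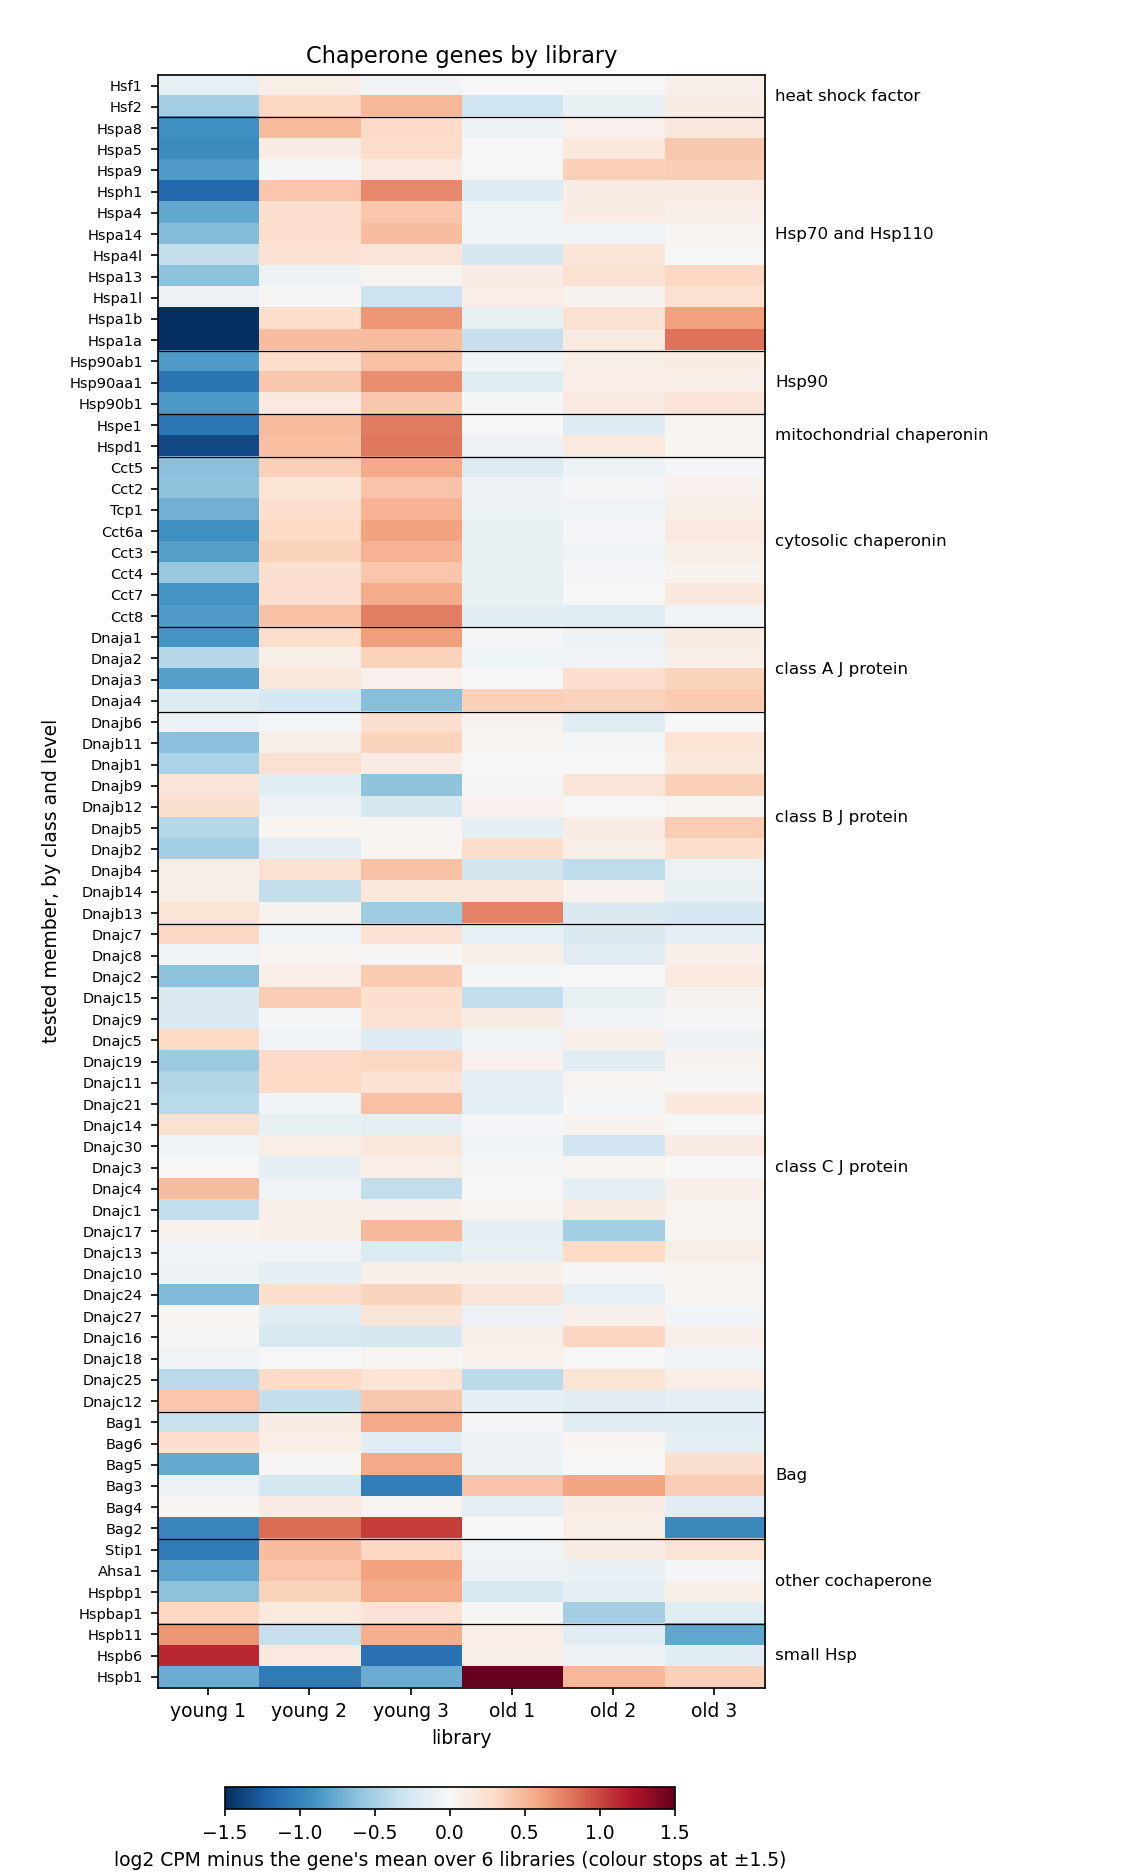
Level of each of the 76 tested chaperone genes (rows, by class) in each of the 6 libraries (columns), as log2 CPM minus that gene's mean over the 6 libraries. The first young column is the lowest of the 6 for 46 genes (60.5%, against 32.8% of all tested genes), among them all chaperonin and Hsp90 genes.

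With all 6 libraries, the quasi-likelihood test of edgeR (Benjamini-Hochberg adjusted p under 0.05) called 0 of 76 chaperone genes, against 0.875% of all tested genes (0.742% higher and 0.133% lower in old). At an unadjusted p under 0.05 there were 4 members (5.26%), Bag3, Dnaja4, Dnajb4 and Hspb1, against 10.6% of all tested genes. DESeq2 called 2 members higher, Dnaja4 and Hspb1, against 3.56% of genes, and 0 lower, against 1.21%. Limma on log2(FPKM + 1) called 0 members in either direction, against 0.79% of genes higher and 0.152% lower. The median difference, old minus young, was -0.04 on the log2 scale for members and -0.03 for all tested genes.

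Without young replicate 1, a choice that leaves 2 young libraries, the same test called 2 members higher in old (2.63%), against 5.86% of all genes, and 6 lower (7.89%), against 2.98% of all genes. Bag3 and Dnaja4 were the higher ones, and Hspd1, Hspe1, Cct5, Cct8, Ahsa1 and Hspbp1 the lower ones. At an unadjusted p under 0.05, 24 members were lower in old (31.6%), against 13.3% of all genes, and 5 were higher (6.58%), against 14.8% of all genes. DESeq2 called 4 members higher without young replicate 1, against 9.43% of all genes, and 19 lower, against 7.62%, while limma called the same 8 genes as edgeR, against 5.28% of all genes higher and 2.37% lower. The median difference was then -0.21 for members and 0.01 for all tested genes. The calls depended on which libraries remained. Leaving out young replicate 3 as well gave 0 members called, where 0.4% of all genes were still called. That fit has 1 young library, which is assumed to vary like the old ones, as has the fit without young replicates 1 and 2. In the latter, 2 members were called higher, against 4.62% of all genes, and 8 lower, against 4.44%. Without young replicate 1 and old replicate 2, 0 members were called, where 2.16% of all genes were. Without young replicate 1 and old replicate 1 there were 2 higher, against 5.86% of all genes, and 3 lower, against 2.33%. Without young replicate 1 and old replicate 3 there were 0 higher, against 4.73% of all genes, and 4 lower, against 1.29%. Below, a gene is said to have risen or fallen without young replicate 1 only where it passed in edgeR in that setting. With all libraries no member passed in edgeR.

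**Figure D2:**
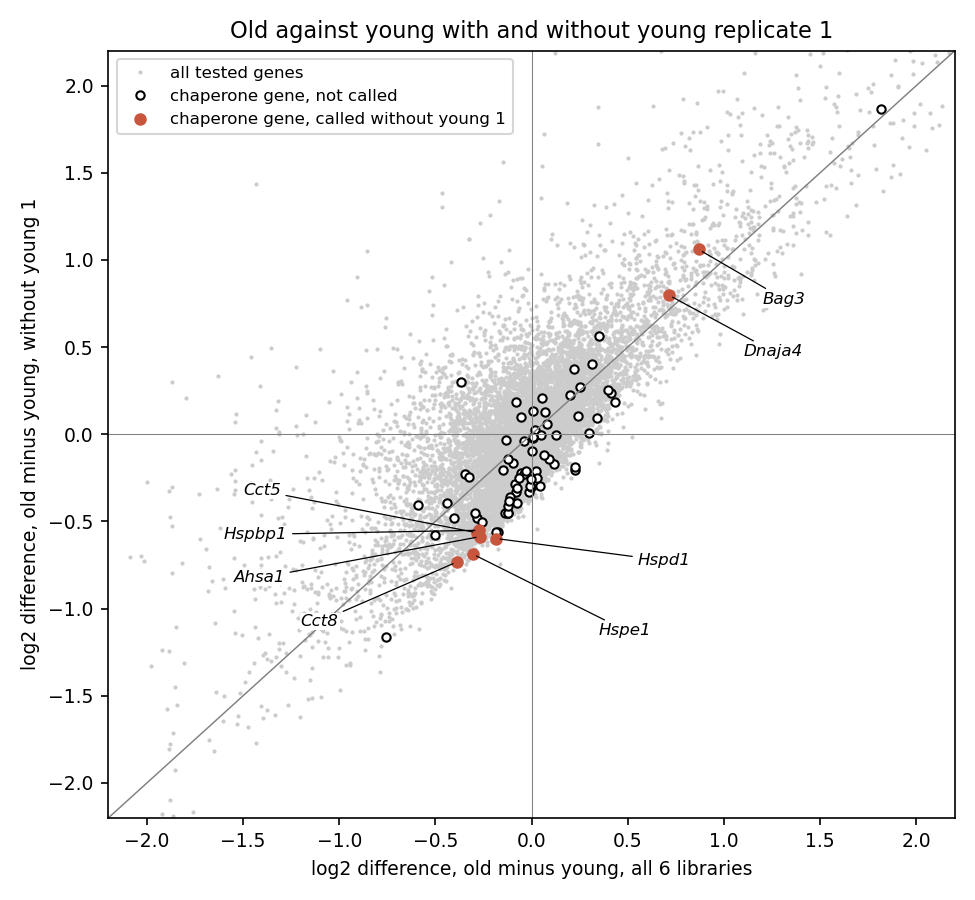
Log2 difference, old minus young, with all 6 libraries (horizontal axis) and without young replicate 1 (vertical axis), for all tested genes (grey), chaperone genes (circles) and the 8 chaperone genes called without young replicate 1 (filled circles, named). Genes beyond 2.2 on either axis are not drawn, and the 6 filled circles in the lower left lie below the diagonal, where the difference is more negative without that library.

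The heat shock factors come first, as regulators of the other genes. Hsf1, the main activator of the heat shock response, stood at 115, 134 and 122 CPM in young replicates 1, 2 and 3 and at 125, 126 and 132 CPM in old replicates 1, 2 and 3. Its groups overlapped and the values of all 6 libraries were close together. The log2 difference was 0.05 ± 0.14 (SE, adjusted p = 0.959). Hsf2, a second factor that binds the same elements, stood at 22.2, 39.1 and 44.6 CPM in young and 25.6, 29.1 and 33.9 CPM in old libraries. Young replicate 1 was the lowest and the other young libraries the highest, and without it the log2 difference was -0.50 ± 0.16 (adjusted p = 0.0877), which did not pass.

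Hspa8, the constitutive cytosolic Hsp70, had the highest mean of all members per length, at 1959 FPKM, followed by Hsp90ab1 at 1869 FPKM. Hspa8 stood at 2116, 5557 and 4874 CPM in young and 3782, 4164 and 4479 CPM in old libraries. The old values fell inside the young range, and the log2 difference was -0.01 ± 0.36 with all libraries (adjusted p = 0.997) and -0.33 ± 0.17 without young replicate 1 (adjusted p = 0.240). The stress-inducible Hsp70 genes were low. Hspa1a and Hspa1b are nearly identical, so the split of reads between them is uncertain, and they are given together: 1.07, 4.04 and 4.65 FPKM in young and 2.82, 3.71 and 5.04 FPKM in old libraries. Here too the first young library was the lowest, and the groups overlapped.

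Hsph1, the Hsp110 protein that exchanges the nucleotide on Hsp70, stood at 125, 379 and 469 CPM in young and 247, 307 and 308 CPM in old libraries. The log2 difference without young replicate 1 was -0.56 ± 0.15 (adjusted p = 0.0557), just short of the threshold. Hspa4, a second Hsp110-type protein, stood at 237, 481 and 541 CPM in young and 387, 436 and 427 CPM in old libraries, again with the old group inside the young range. The class as a whole, with 11 of 14 genes tested, had 0 members called in either setting. Of all tested genes, 0.875% were called with all libraries. Without young replicate 1, 5.86% were called higher and 2.98% lower. The median log2 difference of the class was 0.22 with all libraries and -0.20 without young replicate 1.

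The Hsp70 proteins of the organelles kept a different order. Hspa5 (BiP), the Hsp70 of the endoplasmic reticulum, stood at 400, 835 and 932 CPM in young and 778, 865 and 1019 CPM in old libraries. Hspa9 (mortalin), the mitochondrial Hsp70, stood at 355, 632 and 711 CPM in young and 639, 825 and 827 CPM in old libraries. Both were lowest in young replicate 1, and in both the highest old library was above every young library. Without that library, the log2 differences were 0.01 ± 0.15 for Hspa5 (adjusted p = 0.983) and 0.19 ± 0.16 for Hspa9 (adjusted p = 0.463). Hspa5 per Hspa8, a ratio of FPKM values within each library, was 0.156, 0.124 and 0.158 in young and 0.170, 0.172 and 0.188 in old libraries, so the groups did not overlap. It was 1 of 14 such within-library ratios, which were chosen with the members' values known. With 3 against 3 libraries, the 2-sided exact permutation test cannot go below p = 0.1, the value it gave here (adjusted p = 0.467 over the 14 ratios), so no ratio could pass.

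Promoter windows of 250 bases before to 50 bases after a start, from RefSeq on GRCm38, were found for 76 of the 94 members, 62 of them tested. They were searched on both strands for 2 published elements: the endoplasmic reticulum stress element (CCAAT, any 9 bases, CCACG), through which chaperones of that organelle are induced, and a form of the heat shock element (GAA, any 2 bases, TTC, any 2 bases, GAA). The first was found in 0.119% of all 32851 windows, or 0.137% of the 27025 genes with a window. It was found in 3 of the 76 members with a window, Hspa5, Hsp90b1 and Dnajc3. Their stretches are shown because all 3 proteins work in the endoplasmic reticulum. Capitals mark the element, read 5′ to 3′ on the gene's strand. They are chr2:34771995-34772065 (plus strand) for Hspa5, chr10:86705524-86705669 (minus strand) for Hsp90b1, where the second match is on the opposite strand, and chr14:118937802-118937872 (plus strand) for Dnajc3.
Hspa5: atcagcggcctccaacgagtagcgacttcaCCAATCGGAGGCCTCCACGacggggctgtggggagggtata
Hsp90b1: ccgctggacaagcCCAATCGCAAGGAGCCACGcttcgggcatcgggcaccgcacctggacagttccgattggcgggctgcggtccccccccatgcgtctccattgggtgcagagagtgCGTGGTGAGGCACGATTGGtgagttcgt
Dnajc3: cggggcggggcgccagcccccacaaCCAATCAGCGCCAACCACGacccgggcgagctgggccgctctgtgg
The element ends 47 bases before the start in Hspa5 and 87 bases before it in Dnajc3, and the nearer of both copies in Hsp90b1 ends 89 bases before it. These are matches of letters, and binding was not measured.

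Those 3 genes did not share a pattern over the libraries. Hsp90b1 (Grp94), the Hsp90 of the endoplasmic reticulum, stood at 334, 676 and 803 CPM in young and 603, 669 and 697 CPM in old libraries, with young replicate 1 lowest as for Hspa5. Dnajc3, a J protein of the same compartment, stood at 115, 104 and 123 CPM in young and 113, 118 and 115 CPM in old libraries, with no library apart. Dnajb9, another J protein there, stood at 38.8, 30.4 and 22.2 CPM in young and 34.3, 38.8 and 43.6 CPM in old libraries, and was not lowest in young replicate 1. Without that library its log2 difference was 0.56 ± 0.18 (adjusted p = 0.0923). The 10 members of the endoplasmic reticulum had a median log2 difference of 0.10 with all libraries and 0.04 without young replicate 1. Of these 10, 0 were called with all libraries, against 0.875% of all tested genes. Without young replicate 1, 0 were called, against 5.86% of all tested genes higher and 2.98% lower.

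The cytosolic Hsp90 genes were both lowest in young replicate 1. Hsp90ab1, the constitutive form, stood at 2540, 5495 and 6212 CPM in young and 4439, 4867 and 4935 CPM in old libraries. Hsp90aa1, the inducible form, stood at 513, 1448 and 1782 CPM in young and 966, 1172 and 1153 CPM in old libraries. For both, all old libraries lay between the first young library and the other 2. The log2 difference of Hsp90aa1 was -0.19 ± 0.41 with all libraries (adjusted p = 0.948) and -0.56 ± 0.16 without young replicate 1 (adjusted p = 0.0663). That of Hsp90ab1 without it was -0.30 ± 0.17 (adjusted p = 0.274), and neither passed. Hsp90aa1 per Hsp90ab1 was 0.177, 0.231 and 0.252 in young and 0.191, 0.211 and 0.205 in old libraries, as a ratio of FPKM values, and the groups overlapped.

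**Figure D3:**
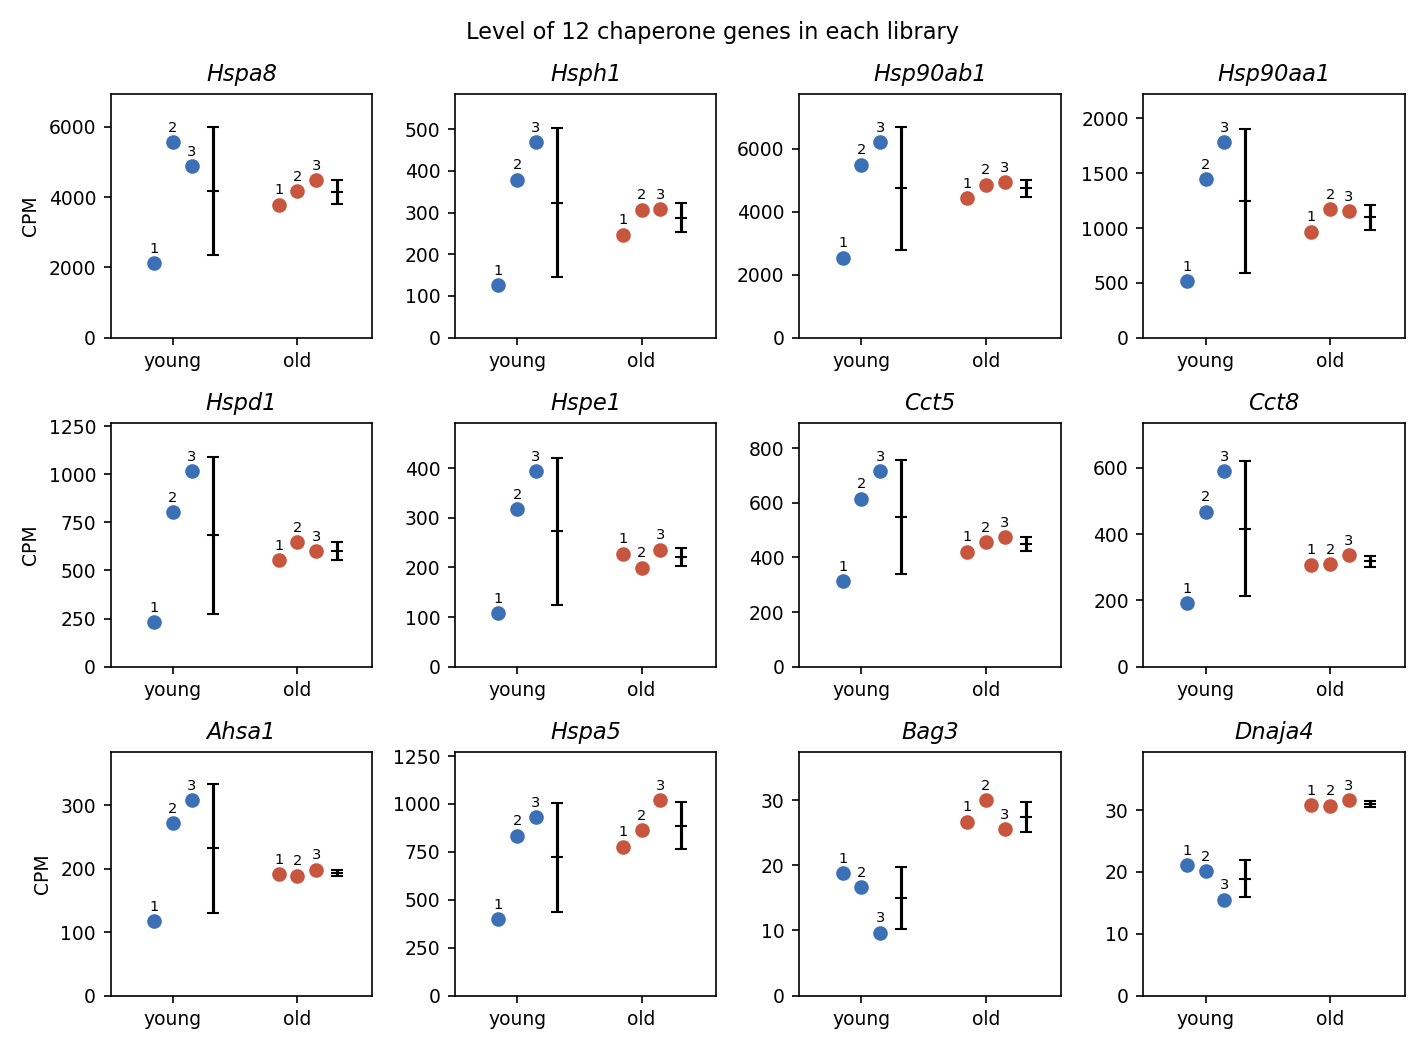
CPM in each library (points, with young and old replicates numbered) for 12 chaperone genes, with the mean and SD of each group of 3 as a bar. In all panels but those of Hspa5, Bag3 and Dnaja4, young replicate 1 sits below all 3 old libraries and the other 2 young libraries above them.

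Among the cochaperones that work with Hsp90 and Hsp70, Ahsa1, which speeds up the ATP cycle of Hsp90, fell without young replicate 1. The gene (at chr12:87266415-87273998 on GRCm38) stood at 117, 272 and 308 CPM in young and 191, 189 and 199 CPM in old libraries. The old libraries were nearly equal and lay below 2 young libraries and above the first, and without that library the log2 difference was -0.59 ± 0.11 (adjusted p = 0.0187). Hspbp1, a nucleotide exchange factor of Hsp70 (chr7:4660515-4685188), stood at 62.2, 122 and 141 CPM in young and 80.6, 86.9 and 101 CPM in old libraries, with a log2 difference of -0.55 ± 0.14 without young replicate 1 (adjusted p = 0.0495). Stip1 (Hop), which links Hsp70 to Hsp90, stood at 196, 563 and 505 CPM in young and 392, 440 and 469 CPM in old libraries. Its old group lay closer to the other 2 young libraries than that of Ahsa1, and its difference without young replicate 1, -0.30 ± 0.13 (adjusted p = 0.172), did not pass.

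Of 21 further cochaperones of Hsp90 and Hsp70, all tested, 0 were called with all libraries, against 0.875% of all tested genes. Without young replicate 1, Fkbp4, Ppid and Cacybp fell, where 2.98% of all genes did, and 0 rose, where 5.86% of all genes did. The median log2 difference of the 21 was -0.07 with all libraries and -0.23 without young replicate 1. Of the 21, 17 were lower in young replicate 1 than in both other young libraries, against 41.2% of all tested genes.

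Hspd1 (Hsp60) and Hspe1 (Hsp10) form the barrel and the lid of the mitochondrial chaperonin, and their genes lie head to head on chromosome 1. They overlap each other, so without a stated strand setting reads from the shared stretch cannot be assigned to one of them. Hspd1 (chr1:55077833-55088243 in RefSeq on GRCm38, as for the positions of genes below) stood at 230, 803 and 1015 CPM in young and 555, 647 and 600 CPM in old libraries. Hspe1 (chr1:55088148-55091317) stood at 108, 318 and 394 CPM in young and 227, 200 and 236 CPM in old libraries. Young replicate 1 had 25.3% of the mean of the other young libraries for Hspd1 and 30.3% for Hspe1, where the median over all tested genes was 103%. With all libraries the log2 differences were -0.18 ± 0.47 (adjusted p = 0.956) and -0.31 ± 0.42 (adjusted p = 0.890). Without young replicate 1, both fell: Hspd1 by 0.60 ± 0.15 on the log2 scale (adjusted p = 0.0441) and Hspe1 by 0.69 ± 0.13 (adjusted p = 0.0224). Hspe1 per Hspd1 was 1.48, 1.24 and 1.22 in young and 1.29, 0.970 and 1.23 in old libraries, as a ratio of FPKM values, and the groups overlapped.

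The heat shock element searched for above was found in 0.603% of all windows, or 0.662% of the 27025 genes with a window. It was found in 4 of the 76 members with a window: Hspd1, Hspe1, Dnajb6 and Hsph1. It is shown for the last 3, since the Hspd1 and Hspe1 matches are the same bases. They lie between the start of Hspe1 and a start of Hspd1, although the span of Hspd1 given above extends past them. Capitals mark the element, or both overlapping copies of it for Hspe1, at chr1:55088028-55088098 (plus strand), chr5:29735818-29735888 (plus strand) for Dnajb6 and chr5:149636280-149636309 (minus strand) for Hsph1.
Hspe1: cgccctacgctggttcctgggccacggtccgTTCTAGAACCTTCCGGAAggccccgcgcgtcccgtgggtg
Dnajb6: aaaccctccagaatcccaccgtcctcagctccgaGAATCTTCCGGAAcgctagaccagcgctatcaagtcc
Hsph1: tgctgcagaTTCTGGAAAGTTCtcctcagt
The copies lie 72 to 89 bases before the start of Hspe1 and, on the other strand, 127 to 144 bases before a start of Hspd1. In Hsph1 the match lies after the start, at 15 to 27 bases from a start and 36 to 48 bases from another. Hspd1, Hspe1 and Hsph1 shared the order of libraries described above. That order was found for 27 members. Only this exact form of the element was searched for, and members without a window were not searched. Whether the order goes with the element was not tested. Dnajb6, a J protein that keeps polyglutamine proteins soluble, stood at 148, 155 and 188 CPM in young and 163, 138 and 156 CPM in old libraries, and its lowest library was in the old group.

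The cytosolic chaperonin (CCT or TRiC) is a double ring of 8 different subunits that folds actin, tubulin and other proteins. All 8 tested subunit genes were lowest in young replicate 1 and highest in the other 2 young libraries. Together they took 0.214%, 0.427% and 0.490% of the counts in young and 0.326%, 0.341% and 0.359% in old libraries. Their log2 differences with all libraries ran from -0.39 to -0.07, and those without young replicate 1 from -0.73 to -0.33. Without that library all 8 were lower in old at an unadjusted p under 0.05, against 13.3% of all tested genes. After adjustment 2 of 8 passed, where 2.98% of all tested genes were called lower.

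The 2 that passed were Cct8 and Cct5. Cct8, the theta subunit (chr16:87483325-87495869), stood at 192, 468 and 590 CPM in young and 308, 310 and 337 CPM in old libraries, and without young replicate 1 it fell by 0.73 ± 0.13 on the log2 scale (adjusted p = 0.0178). Cct5, the epsilon subunit (chr15:31590800-31601846), stood at 313, 616 and 715 CPM in young and 421, 455 and 474 CPM in old libraries, and fell by 0.56 ± 0.13 (adjusted p = 0.0327). The old values lay inside the young range for both genes. Tcp1, the alpha subunit, stood at 317, 623 and 750 CPM in young and 495, 499 and 557 CPM in old libraries, and Cct2, the beta subunit, at 342, 600 and 696 CPM in young and 492, 510 and 544 CPM in old libraries. They had the same order, with differences of -0.41 ± 0.13 (adjusted p = 0.0937) and -0.33 ± 0.12 (adjusted p = 0.133) without young replicate 1, and did not pass. Cct3, Cct4, Cct6a and Cct7 had differences of -0.45, -0.36, -0.45 and -0.39 there and did not pass either.

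Because each ring holds 1 copy of each subunit, the balance among the 8 messenger RNAs was also described, as each subunit's percent of their summed FPKM. The highest subunit was 1.76 to 2.21 times the lowest in a library, with the largest spread in young replicate 1. Cct5 took 17.6%, 17.1% and 16.8% in young and 15.6%, 16.0% and 15.4% in old libraries, so its groups did not overlap. Its 2-sided exact permutation p was 0.1, the smallest that 3 against 3 libraries allow (adjusted p = 0.467). Cct8 took 7.99%, 9.58% and 10.2% in young and 8.41%, 8.06% and 8.09% in old libraries, and its groups overlapped. Over all 14 ratios the groups were apart for 3: the Cct5 share, Hspa5 per Hspa8, and Bag3 per Bag1.

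**Figure D4:**
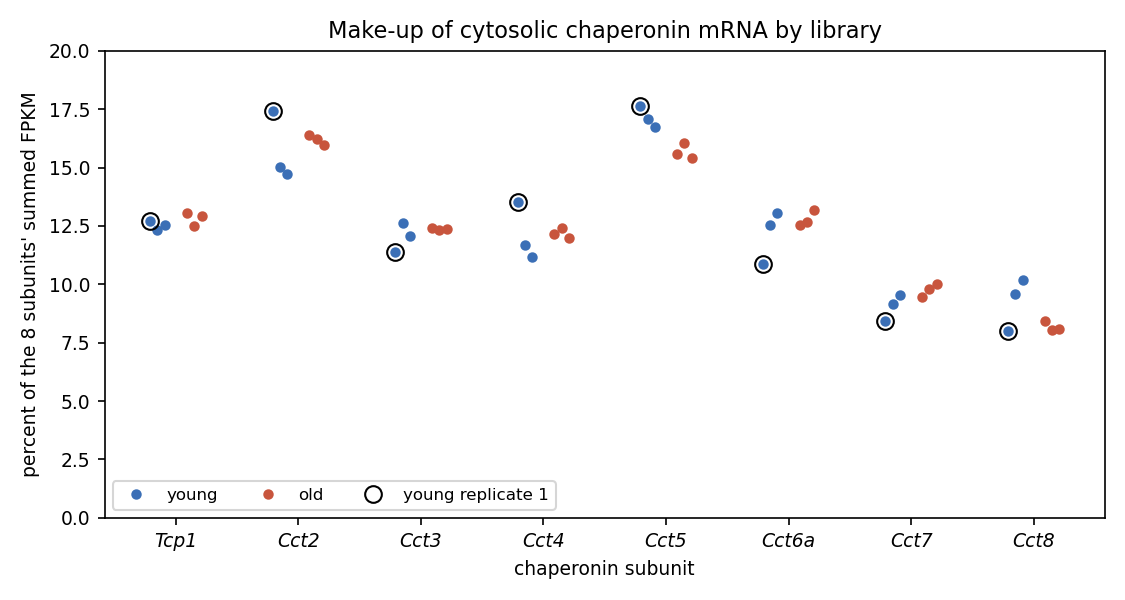
Each chaperonin subunit's share of the 8 subunits' summed FPKM (percent, vertical axis) in each library (points), by subunit and age group. The Cct5 share lies between 16.8% and 17.6% in young and between 15.4% and 16.0% in old libraries, while the groups of the other 7 subunits overlap.

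Partners and clients of the chaperonin were described by list. Of 11 prefoldin subunits and chaperonin cofactors, which deliver chains to the ring, 0 were called in either setting. All 11 had a negative log2 difference without young replicate 1, as had 54 of the 76 tested members (71.1%). The median of the 11 was then -0.23, against 0.01 over all tested genes. Of 11 actin and tubulin genes, 0 were called in either setting, with a median of 0.14 with all libraries and -0.05 without young replicate 1. Of 11 genes of mitochondrial folding and proteolysis, 0 were called in either setting, with a median of 0.003 with all libraries and -0.15 without young replicate 1. Of 17 further folding genes of the endoplasmic reticulum, 0 were called with all libraries, and without young replicate 1 Herpud1 rose and Sdf2l1 fell. Over all tested genes, 0.742% were called higher and 0.133% lower with all libraries. Without young replicate 1 these shares were 5.86% and 2.98%.

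The J-domain proteins, which bring clients to Hsp70 and trigger its ATP hydrolysis, differed less between the first young library and the others. The median level in young replicate 1 was 86.4% of the mean of the other young libraries over the 37 tested J genes. Over the chaperonin subunits it was 43.9%, and over all tested genes 103%. By class of J gene it was 57.9% over the 4 tested of class A, 85.2% over the 10 of class B and 94.2% over the 23 of class C. Dnaja1, a class A gene and the main cytosolic partner of Hspa8, stood at 171, 380 and 488 CPM in young and 313, 298 and 342 CPM in old libraries. Dnajb1, an inducible partner of Hsp70, stood at 74.4, 122 and 112 CPM in young and 103, 103 and 116 CPM in old libraries. Neither passed: the log2 differences without young replicate 1 were -0.45 ± 0.14 for Dnaja1 (adjusted p = 0.0840) and -0.12 ± 0.12 for Dnajb1 (adjusted p = 0.541).

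Dnaja4, a cytosolic class A J protein (chr9:54698848-54716317), went the other way. It stood at 21.1, 20.2 and 15.5 CPM in young and 30.8, 30.7 and 31.6 CPM in old libraries, so that every old library was above every young one, and the old libraries differed little. The log2 difference was 0.71 ± 0.18 with all libraries, with an adjusted p of 0.146 in edgeR and of 0.00852 in DESeq2. Without young replicate 1, Dnaja4 rose by 0.80 ± 0.16 (adjusted p = 0.0242 in edgeR). Young replicate 1 was the highest of the young libraries for this gene. Dnajb4, a class B J protein, stood at 12.8, 14.1 and 16.3 CPM in young and 9.93, 9.29 and 11.3 CPM in old libraries. Its groups did not overlap, with old lower, and its difference of -0.50 ± 0.20 did not pass (adjusted p = 0.410). The gene overlaps Fubp1, and reads from the shared stretch cannot be assigned without a strand setting.

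The Bag proteins, which release clients from Hsp70, did not move together. Bag3, which directs clients to autophagy (chr7:128523583-128546981), stood at 18.8, 16.6 and 9.65 CPM in young and 26.7, 29.97 and 25.6 CPM in old libraries. Every old library was above every young one, and young replicate 3 was the lowest. The log2 difference was 0.87 ± 0.26 with all libraries (adjusted p = 0.247), and Bag3 rose by 1.06 ± 0.24 without young replicate 1 (adjusted p = 0.0324). Bag1, which couples Hsp70 to the proteasome, stood at 72.9, 99.2 and 136 CPM in young and 89.4, 81.4 and 82.4 CPM in old libraries. Its groups overlapped, and the difference without young replicate 1 was -0.48 ± 0.15 (adjusted p = 0.0912). Bag3 per Bag1, as a ratio of FPKM values, was 0.132, 0.0858 and 0.0363 in young and 0.153, 0.189 and 0.159 in old libraries, with no overlap. Bag2, an inhibitor of the ubiquitin ligase CHIP, was low, at 2.37, 8.44 and 9.65 CPM in young and 4.69, 5.02 and 2.40 CPM in old libraries, and did not pass in either setting.

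Small heat shock proteins hold unfolded chains without ATP. Of the 8 members placed in that class by symbol alone, 3 were tested: Hspb1, Hspb6 and Hspb11. A symbol does not show that each of them works in that way. Hspb1 (Hsp25) stood at 0.868, 0.699 and 0.867 CPM in young and 4.69, 2.05 and 1.86 CPM in old libraries, and its lowest library held 13 counts. Every old library was above every young one, and old replicate 1 was the highest. The log2 difference was 1.81 ± 0.46 with all libraries, with an adjusted p of 0.162 in edgeR and of 0.0300 in DESeq2.

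Across all members the age groups did not overlap for 7 with old higher (9.21%), against 9.9% of all tested genes. They did not overlap for 4 with old lower (5.26%), against 6.54% of all tested genes. The first were Bag3, Dnaja4, Dnajb2, Dnajc16, Hspa13, Hspa1l and Hspb1, and the others Dnajb4, Dnajc17, Dnajc7 and Hspbap1. Both shares were close to those of all genes. Of the 17 members listed as targets of heat shock factor, 0 were called with all libraries, against 0.875% of all tested genes. Without young replicate 1, Bag3 and Dnaja4 rose, where 5.86% of all genes did. Hspd1, Hspe1 and Ahsa1 fell, where 2.98% of all genes did. These 5 genes thus did not share a direction. In that setting 14 of the 17 targets had a negative difference, as had 54 of the 76 tested members (71.1%). The targets' median was then -0.30, against -0.21 over all tested members and 0.01 over all tested genes. Young replicate 1 was the lowest library for 13 targets, where it was for 60.5% of tested members and 32.8% of all tested genes.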

How the data were processed

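Sequencing of CD4+ T-cell RNA gave 3 young and 3 old libraries, per the labels' protocols. For each of 66712 transcripts and each library, the table deposited by the authors holds an expected count and FPKM, per the file headers. The submitters' processing notes name Bowtie, RSEM and GRCm38 (mm10). No version, annotation release or strand setting is given in the sources used here. Because reads that match several transcripts are shared out by a model, an expected count is an estimate.

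Expected counts and FPKM were summed per gene (19977 genes, of which 19830 had a symbol in the RefSeq table), and counts were rounded. Genes with a mean of at least 1 FPKM (10509) were tested with edgeR 4.0.16 in R 4.3.3 (quasi-likelihood test, TMM factors, no replicate block), with calls at an adjusted p (Benjamini-Hochberg, over all of them) under 0.05. Standard errors were obtained by dividing a log2 difference by the square root of its F value. Libraries were grouped and numbered from the titles. Libraries held 16932551 or more counts, and counting error bears most on low genes such as Hspb1, Bag2 and Hspa1a.

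Members matched 111 symbols of the RefSeq table, of which 17 were not in the deposited table. Members and lists were chosen with earlier results of these data known. The genes described are the factors, main Hsp70, Hsp90, chaperonin and cochaperone genes set beforehand, in each class the 2 with the smallest p and the 2 with the highest FPKM, and members called without young replicate 1. Only part of them is described here.

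Alternatives were no filter, a mean of at least 5 FPKM, a replicate block, RLE factors, DESeq2 1.42.0, limma 3.58.1 on log2(FPKM + 1) and log2(FPKM + 0.1), and leaving out each library. Other tools and factors without young replicate 1, and leaving out a second library, were chosen after seeing the data. Figures used matplotlib 3.10.9. Reads cannot be assigned between overlapping genes without a strand setting, which touches Hspa5 with Rabepk, Cct8 with Usp16, Tcp1 with Mrpl18 and Acat3, Cct6a with Psph, Cct7 with Pradc1, Dnajc7 with Cnp and Nkiras2, and Dnajc17 with Zfyve19.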

Additional observations from a re-analysis of the deposited data

How the results depend on the processing

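No setting gave a member called lower in old except leaving out a library. Shares of all genes called are given above only for the main fit, DESeq2, limma on log2(FPKM + 1) and fits without young replicate 1. In the other settings, a count of 0 members cannot be weighed against all genes. With all libraries DESeq2 called 2 members higher. Leaving out 1 library gave 0 to 2 members called higher and 0 to 6 called lower, and young replicate 1 was the library whose absence gave the 2 and the 6. Without it, DESeq2 called 4 higher and 19 lower, and leaving out a second library gave 0 to 2 higher and 0 to 8 lower. Of 31 members followed singly, those given here changed sign in some setting. With no filter Hspa8 had a log2 difference of 0.00145 and Hsp90ab1 of 0.018, and Hsp90ab1 had 0.00225 at a mean of at least 5 FPKM. With a replicate block, 0 members were called, the members' median was 0.0061, and Hspa8 had 0.096, Hsph1 0.016, Hsp90ab1 0.096 and Hspd1 0.0515. The labels state no pairing by number. Deviations from the group mean correlated at 0.232 for the pair numbered 1, -0.025 for the pair numbered 2 and 0.209 for the pair numbered 3. The highest correlation, 0.360, was between young replicate 2 and old replicate 3. These values do not settle whether the numbers pair the libraries. Limma on log2(FPKM + 1) gave Hspa8 0.111, Hsph1 0.020, Hsp90aa1 0.0034, Hsp90ab1 0.1105, Hspd1 0.079 and Dnaja1 0.013, and with a pseudocount of 0.1 it gave 0.111, 0.023, 0.0039, 0.1106, 0.0805 and 0.014. The cause of these changes was not tested.

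Leaving out each library in turn, log2 differences ran from -0.0023 to 0.11 for Hsf1, -0.33 to 0.24 for Hspa8, -0.19 to 0.48 for Hspa1a, -0.20 to 0.66 for Hspa1b and -0.56 to 0.18 for Hsph1. They ran from -0.56 to 0.15 for Hsp90aa1, -0.30 to 0.23 for Hsp90ab1, -0.17 to 0.37 for Hsp90b1, -0.60 to 0.21 for Hspd1 and -0.69 to 0.045 for Hspe1. For the rest that changed sign they ran from -0.45 to 0.20 for Dnaja1, -0.12 to 0.20 for Dnajb1, -0.046 to 0.071 for Dnajc3, -0.16 to 0.0041 for Dnajb6, -0.33 to 0.12 for Cct2, -0.41 to 0.13 for Tcp1 and -0.30 to 0.31 for Stip1. Depth limits low members most: Hspb1 had 13 counts in its lowest library.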

Other observations

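Shares of single transcripts in a gene's FPKM varied between libraries for many members. Those of Hspd1, Hsf1 and Bag1 are given here only as values, because RSEM's division among transcripts of 1 gene carries an error that the table does not state. The most abundant transcript of Hspd1 took 85.4% of the gene's FPKM in young replicate 1, 98.5% and 97.2% in young replicates 2 and 3, and 97.9% to 98.4% in old libraries. For Hsf1, whose summed level was similar in all 6 libraries, the curated transcript took 18.6% of the gene's FPKM in young replicate 1, 35.01% and 46.3% in young replicates 2 and 3, and 28.6% to 31.99% in old libraries. The 2 transcripts of Bag1 had identical expected counts in every library, 629.5 each in young replicate 1. Their equal shares therefore say nothing of which transcript was present. The genes were chosen after their values were seen.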
